A study of Homo sapiens with 6 samples.

Results

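The genes described here are transcription factors that set the myeloid lineages of blood cells. They were chosen by name from the deposited table of gene expression: Spi1, Cebpa, Cebpb, Cebpe, Gfi1, Irf8, Runx1, Myb, Gata1 and Gata2. Of these 10 genes, 9 were found among the 22413 genes of the table, and Cebpa is not analysed here. Their identifiers in the table are ENSMUSG00000002111 (Spi1), ENSMUSG00000056501 (Cebpb), ENSMUSG00000052435 (Cebpe), ENSMUSG00000029275 (Gfi1), ENSMUSG00000041515 (Irf8), ENSMUSG00000022952 (Runx1), ENSMUSG00000019982 (Myb), ENSMUSG00000031162 (Gata1) and ENSMUSG00000015053 (Gata2). The cells were BaF3-T315I, a murine line stably transfected with BCR-ABL that carries the T315I mutation, the change in the kinase that makes it resistant to imatinib. Both groups carry this transgene, and no line without it was sequenced. The mRNA of 3 control samples was compared with that of 3 samples exposed to 1.1 µM of I13, an inhibitor of histone deacetylases, for 48 h. What the control received and for how long is not given in the labels, which also name the organism as human although every gene identifier is from the mouse. Nothing in the labels says that the replicates were separate cultures, so the p-values measure the spread between these samples, which may be technical.

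Blood lineages are set by a small number of transcription factors that activate the genes of their own lineage and hold back those of others. Spi1, an ETS factor also called PU.1, drives monocytes, granulocytes and B cells, and the GATA factors drive erythroid cells, megakaryocytes and mast cells, and the proteins of Spi1 and Gata1 inhibit each other. During erythroid maturation Gata1 takes the place of Gata2 on chromatin and silences the Gata2 gene. The C/EBP factors act in granulocytes and macrophages, with Cebpe late in granulocyte maturation. Gfi1 and Irf8 favour granulocytes and monocytes, respectively, and Gfi1 represses its targets together with histone deacetylases. Runx1 and Myb act in stem and progenitor cells. The study asked whether I13 releases the block in myeloid differentiation, and the levels of these factors bear on which lineage programs the cells held before and after the exposure.

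The values are FPKM, the fragments on a gene relative to gene length and library depth, so levels can be compared between genes. Each library held between 16762119 and 17722950 fragments. The 2 groups were compared with limma on log2(FPKM + 0.1) in the 12163 genes whose mean FPKM reached 0.5, with p-values adjusted over all of them by the Benjamini-Hochberg method. Genes past both an adjusted p of 0.05 and a log2 fold change of 0.58, up or down, were called. On this scale the fold change of a gene with a low FPKM is understated. Replicate numbers are common to both groups, so results with them as a block are given too. Of the 9 factors, 7 passed the filter on low values, and Irf8 and Gfi1 did not.

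The factors were present at very different levels, and the order was led by the GATA pair. Gata2 had a mean of 191 FPKM over the 6 samples, Gata1 51.3 FPKM, Spi1 16.5 FPKM, Cebpe 10.1 FPKM, Myb 6.25 FPKM, Runx1 4.99 FPKM and Cebpb 2.10 FPKM. Irf8 lay at 0.058 FPKM, and Gfi1 was listed at 0 in 5 of the 6 libraries. Gata2 ranked 232 among the 12163 genes tested and Gata1 ranked 1079, whereas the median gene tested had 7.48 FPKM. Myb, Runx1 and Cebpb lay under that median, the last at the 21.4 percentile. The values of Gata2 did not overlap with those of Gata1, and those of Gata1 did not overlap with those of Spi1. Spi1 and Cebpe, Cebpe and Myb, and Myb and Runx1 were neighbours whose values overlapped, although Spi1 exceeded Cebpe in all 6 samples and Myb exceeded Runx1 in all 6. Cebpe exceeded Myb in 5 samples, the exception being control replicate 3. Runx1 and Cebpb did not overlap, nor did Cebpb and Irf8, whose means differed 36.3-fold.

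None of the 7 factors tested was called after I13, where 0.0411% of all genes tested were called. None had an unadjusted p below 0.05 from limma either, against 18.6% of all genes tested, and the adjusted p ran from 0.338 for Spi1 to 0.910 for Runx1. None of the 7 separated the groups without overlap, against 25.2% of all genes tested. The median log2 fold change of the 7 was 0.14, with 5 higher and 2 lower, against -0.005 over all genes tested. With the replicate block no factor was called, where 1.89% of all genes tested were, and none had an adjusted p below 0.05, which 2.99% of all genes had. At an unadjusted p below 0.05 with the block were Gata1, Spi1 and Gata2, against 28.0% of all genes tested. In these bulk samples a change in the share of cells that express a gene and a change in its RNA per cell cannot be told apart.

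**Figure D1:**
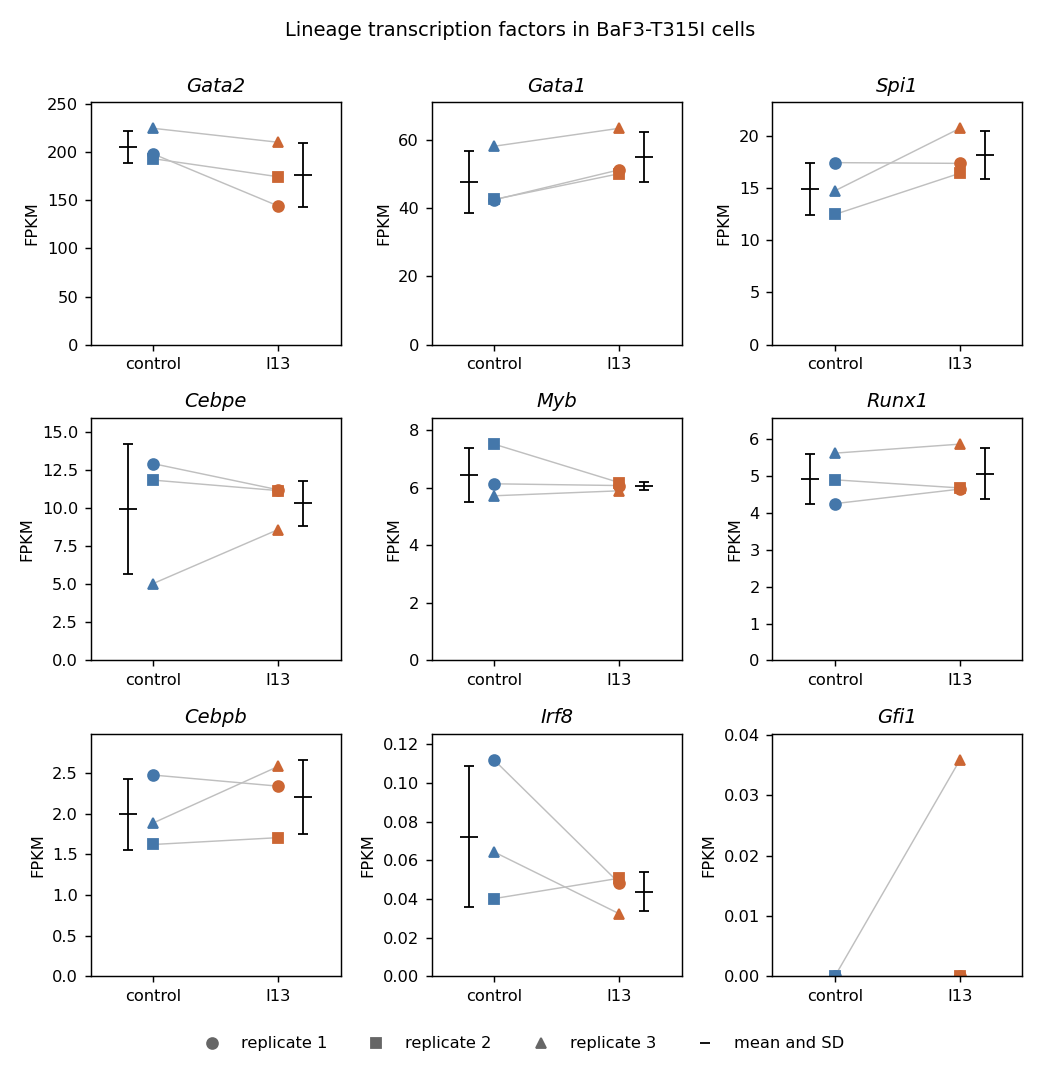
FPKM of each of the 9 factors in the 3 control and 3 I13 samples, 1 panel per gene in order of its mean level, with each vertical axis starting at 0. Symbols mark the replicate number, grey lines join samples with the same number, and black bars show the mean and SD of each group, left out for Gfi1. Gata2 sits between 144 and 225 FPKM and Gata1 between 42.4 and 63.4 FPKM, and the control and I13 points overlap in every panel.

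Gata2 keeps stem and progenitor cells in an immature state and is needed for mast cells. It had 198, 193 and 225 FPKM in control replicates 1, 2 and 3, against 144, 175 and 210 FPKM in I13 replicates 1, 2 and 3, and every later trio of values keeps that order. The highest I13 sample lay above the lowest controls, so the groups overlapped, but in each of the 3 same-numbered pairs Gata2 was lower in the I13 sample. Its mean was 206 ± 17.0 FPKM in the control and 176 ± 33.2 FPKM after I13 (SD, n = 3 each). The log2 fold change was -0.23 ± 0.15 (standard error; limma adjusted p = 0.422, with the block 0.158). The 95% confidence interval of the fold ran from 0.670 to 1.08, so a decrease to under 0.670 of the control level lay outside it. Without I13 replicate 1 the log2 fold change of Gata2 was -0.098, and without I13 replicate 3 it was -0.37.

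Gata1, the factor that drives red cell and megakaryocyte maturation, differed in the other direction. It had 42.4, 42.6 and 58.2 FPKM in the controls, against 51.3, 50.1 and 63.4 FPKM in the I13 samples. Control replicate 3 exceeded I13 replicates 1 and 2, so the groups overlapped, while in all 3 pairs the I13 sample had more Gata1. The mean was 47.7 ± 9.04 FPKM in the control and 54.9 ± 7.38 FPKM after I13 (SD, n = 3 each). The log2 fold change was 0.21 ± 0.16 (standard error; limma adjusted p = 0.502, with the block 0.122, the lowest among the 7 factors in that fit). The standard error of Gata1 was 0.067 with the block, and 73.5% of its sum of squares lay between the replicate numbers. Gata1 and Gata2 were the only factors of the 7 that differed in the same direction in all 3 pairs, a share of 28.6% against 51.5% of all genes tested.

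Spi1 had 17.4, 12.5 and 14.7 FPKM in the controls, against 17.4, 16.4 and 20.7 FPKM in the I13 samples. It was higher in 2 of the 3 pairs, and in the pair of replicate 1 the values were nearly the same. Means were 14.9 ± 2.48 FPKM in the control and 18.2 ± 2.26 FPKM after I13 (SD, n = 3 each). Its log2 fold change, the largest of the 7 factors, was 0.29 ± 0.15 (standard error; limma adjusted p = 0.338, with the block 0.173). The 95% confidence interval of the fold ran from 0.959 to 1.56. Spi1 was also the only factor of the 7 in which the share of the sum of squares between the conditions, 42.2%, was above that between the replicate numbers, 35.1%.

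Among the C/EBP factors, Cebpe was the more abundant of the pair analysed. Cebpe had 12.9, 11.8 and 5.04 FPKM in the controls, against 11.2, 11.1 and 8.58 FPKM in the I13 samples, so that replicate 3 was the lowest sample in both groups. The means were 9.92 ± 4.26 FPKM in the control and 10.3 ± 1.49 FPKM after I13 (SD, n = 3 each), and the log2 fold change was 0.16 ± 0.34 (standard error; limma adjusted p = 0.838). That direction rested on control replicate 3, without which the log2 fold change was -0.27. The 95% confidence interval of the fold, 0.638 to 1.94, was the widest of the 7 factors, and the SD within the groups was 0.54 on the log2 scale against a median of 0.19 over all genes tested. Cebpb, which acts in macrophages and in the granulocyte response to stress, had 2.48, 1.62 and 1.89 FPKM in the controls, against 2.34, 1.71 and 2.58 FPKM in the I13 samples. The groups overlapped throughout, and the log2 fold change was 0.14 ± 0.22 (standard error; limma adjusted p = 0.767). It lay between 0.0098, without control replicate 2, and 0.31, without I13 replicate 2. Cebpb rested on 43 to 68 fragments per library, at which counting alone gives an SD of 12.1% to 15.2%.

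The progenitor factors Runx1 and Myb differed least between the conditions. Runx1 had 4.25, 4.90 and 5.62 FPKM in the controls, against 4.64, 4.68 and 5.86 FPKM in the I13 samples. Its log2 fold change was 0.04 ± 0.15 (standard error; limma adjusted p = 0.910), and the 95% confidence interval of the fold ran from 0.805 to 1.31. Its sign turned without control replicate 1, at -0.059, and without I13 replicate 3, at -0.068. Myb had 6.13, 7.51 and 5.72 FPKM in the controls, against 6.07, 6.18 and 5.89 FPKM in the I13 samples, and control replicate 2 was above all other samples. The log2 fold change of Myb was -0.08 ± 0.13 (standard error; limma adjusted p = 0.755), with a 95% confidence interval of the fold from 0.770 to 1.16, and without control replicate 2 the log2 fold change was 0.029. Cbfb, which encodes the partner that stabilises Runx1 on DNA, had 64.5 ± 7.53 FPKM in the control and 64.6 ± 5.68 FPKM after I13 (SD, n = 3 each), far above Runx1 itself.

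**Figure D2:**
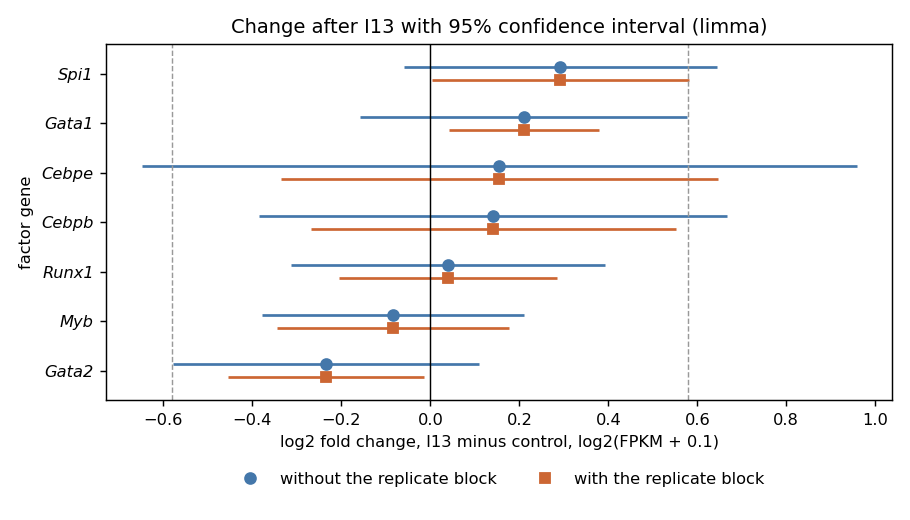
Log2 fold change of the 7 factors tested, I13 minus control on log2(FPKM + 0.1), with its 95% confidence interval from limma, without the replicate block (circles) and with it (squares). Dashed lines mark the threshold of 0.58 in each direction. Every circle's interval crosses 0, and with the block those of Spi1, Gata1 and Gata2 do not.

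Irf8, which directs progenitors to monocytes and dendritic cells, was barely detected. It was counted at 14, 5 and 8 fragments in control replicates 1, 2 and 3 and at 6, 6 and 4 fragments in the I13 replicates, or 0.032 to 0.112 FPKM. The 16 fragments after I13 against 27 in the control gave a ratio of 0.605 per library fragment, with an exact 95% interval from 0.305 to 1.16 that covers counting error only, so a difference was not detectable at this depth. Gfi1 was counted at 0 fragments in all 3 controls and in I13 replicates 1 and 2, and at 1 fragment in I13 replicate 3. A count of 0 allows up to 3 fragments, or 0.108 FPKM. Its paralog Gfi1b, which represses genes in erythroid cells and megakaryocytes, was listed between 22.0 and 29.0 FPKM in the 6 samples. Gfi1b had a log2 fold change of -0.05 ± 0.12 (standard error; limma adjusted p = 0.839).

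For most of the factors the replicate number held more of the variation than the exposure did. The share of the sum of squares of log2(FPKM + 0.1) that lay between the replicate numbers was above the share between the conditions in 6 of the 7 factors, and in 59.5% of all genes tested. The share of the replicate numbers has 2 degrees of freedom and that of the conditions 1. In Runx1, 92.2% lay between the replicate numbers and 1.60% between the conditions. In Cebpe these shares were 74.6% and 2.96%, and in Cebpb 73.9% and 7.84%. Over all genes tested the medians were 42.2% and 25.9%. Replicate 3 had the highest Gata1, Gata2 and Runx1 and the lowest Cebpe and Myb in both groups. The labels do not say what the replicate numbers share, and its part in these values was not tested.

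**Figure D3:**
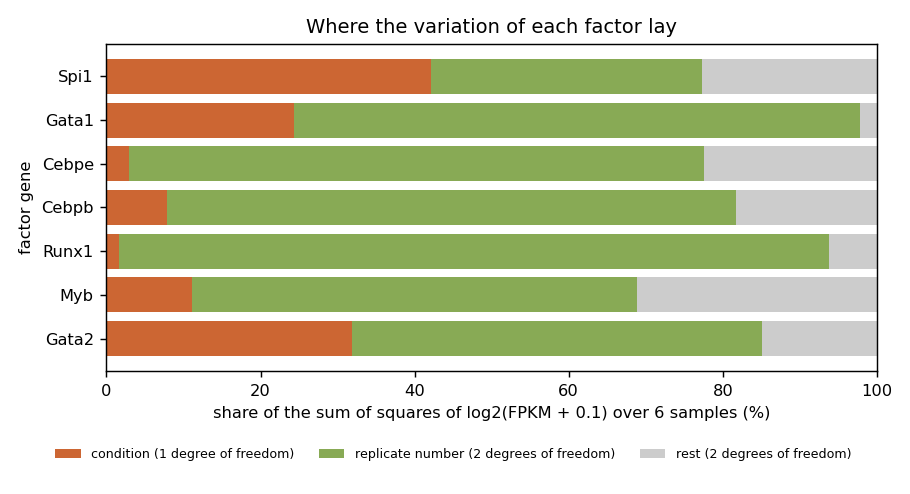
Share of the sum of squares of log2(FPKM + 0.1) over the 6 samples that lay between the conditions, between the replicate numbers and in the rest, in %, for the 7 factors tested. The replicate number holds the widest part of each bar except that of Spi1, where the condition holds 42.2%.

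Because some of these factors act against each other, the ratio of their levels within a sample was compared for 3 pairs of genes. The ratio of Gata2 to Gata1 was 4.67, 4.54 and 3.87 in control replicates 1, 2 and 3 and 2.81, 3.48 and 3.32 in the I13 replicates. Every I13 sample lay below every control. The log2 ratio was 0.44 lower after I13, a difference of -0.44 between means of 2.12 ± 0.15 and 1.67 ± 0.16 (SD, n = 3 each; exact permutation test, two-sided, p = 0.10, adjusted over the 3 ratios 0.15). The ratio of Spi1 to Gata2 was 0.088, 0.065 and 0.066 in the control replicates and 0.121, 0.094 and 0.099 in the I13 replicates, again without overlap and in the opposite direction. Its log2 difference was 0.53 (exact permutation test, two-sided, p = 0.10, adjusted 0.15). With 3 samples against 3 this test cannot give a p below 0.10, so neither ratio could pass a threshold of 0.05, and both rest on the same Gata2 values. Of single genes tested 25.2% separated the groups without overlap, and the share among ratios of other genes was not computed. The ratio of Spi1 to Gata1 was 0.411, 0.293 and 0.253 in the control replicates and 0.339, 0.328 and 0.327 in the I13 replicates. It overlapped between the groups, with a log2 difference of 0.08 (exact permutation test, two-sided, p = 0.70, adjusted 0.70), which was -0.069 without control replicate 3.

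**Figure D4:**
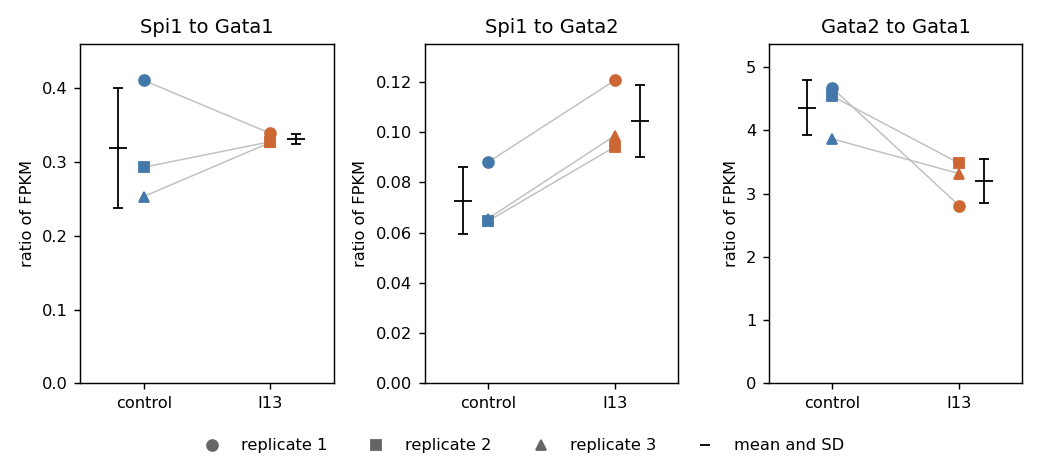
Ratio of the FPKM of 2 factors within each sample, for Spi1 to Gata1, Spi1 to Gata2 and Gata2 to Gata1, in control and I13 samples, with each vertical axis starting at 0. Symbols, grey lines and bars are as for the single genes. The Gata2 to Gata1 ratio lies between 3.87 and 4.67 in the control and between 2.81 and 3.48 after I13.

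The factors that work beside these genes were described with a list of 19 stem and progenitor factors and a list of 25 partner and lineage factors. Of these, 12 and 17 were tested and none was called, where 0.0411% of all genes tested were. The median log2 fold changes of the lists were -0.09 and 0.12. An unadjusted p below 0.05 was seen in 2 of the 12, 1 higher and 1 lower, and in 3 of the 17, 2 higher and 1 lower, against 18.6% of all genes tested. Lyl1 and Tal1, which work with the GATA factors in progenitors, lay between Gata1 and Gata2 in level. Lyl1 had 145 ± 5.60 FPKM in the control and 108 ± 3.82 FPKM after I13 (SD, n = 3 each), and its log2 fold change was -0.43 (limma adjusted p = 0.101, with the block 0.0384). Zfpm1, the cofactor FOG-1 of Gata1 and Gata2, had 108 ± 20.5 and 78.4 ± 12.8 FPKM (SD, n = 3 each), and its log2 fold change was -0.46 (limma adjusted p = 0.225, with the block 0.0706). Klf1, an erythroid factor under the control of Gata1, had 8.38 ± 2.04 FPKM in the control and 14.6 ± 1.27 FPKM after I13 (SD, n = 3 each), and its log2 fold change was 0.82 (limma adjusted p = 0.113, with the block 0.0590). With the block, where 1.89% of all genes tested were called, 1 gene of each list was, Mycn with a log2 fold change of 0.79 and Id2 with 1.03. Over all lists 8 genes were called with the block, of 230 among all genes tested. Without the samples of replicate 2 or of replicate 3 the block called 0 of all genes tested, so that 0 list genes says nothing particular to the lists. Without those of replicate 1 it called 83 genes, 5 of them in the lists.

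The genes that these factors are known to act on differed in whether they were expressed at all. Of 16 granulocyte genes, 10 had a row and 3 were tested, with a median log2 fold change of -0.48. The granule genes Ltf, Lcn2, Camp, Ngp and Mmp8, which Cebpe activates in maturing granulocytes, reached at most 0.224 FPKM in any sample, although Cebpe itself was at 5.04 to 12.9 FPKM. Mpo and Elane were at most 0.115 FPKM. Prtn3 was the most abundant granulocyte gene, with 4.41 ± 1.15 FPKM in the control and 6.34 ± 2.48 FPKM after I13 (SD, n = 3 each, adjusted p = 0.493 from limma). Ms4a3 and Mmp9, the others tested, had log2 fold changes of -0.54 and -0.48 and were lower in all 3 pairs (limma adjusted p = 0.491 and 0.419). Csf1r, the receptor of macrophage growth factor and a target of Spi1, was at most 0.023 FPKM in the controls. After I13 it was at most 0.070 FPKM, on 6 fragments in replicate 3.

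Other genes of monocytes and macrophages were expressed, however. Of 14 such genes 8 were tested, 5 of them had an unadjusted p below 0.05 in the higher direction and none in the lower, against 18.6% of all genes tested in either direction, and the median log2 fold change of the 8 was 0.76. That median includes Ctss, which had a mean of 0.250 FPKM in the control and 0.790 FPKM after I13. Ctss, with a log2 fold change of 1.47, thus passed the filter on low values only through the I13 samples. None of the 8 was called without the block, where 0.0411% of all genes tested were. With the block Adgre1 and Ccr2 were called, against 1.89% of all genes tested. Adgre1, a surface receptor of macrophages, had 32.0 ± 12.0 FPKM in the control and 64.3 ± 17.6 FPKM after I13 (SD, n = 3 each), and its log2 fold change was 1.05 (limma adjusted p = 0.180, with the block 0.0308). Ccr2, a chemokine receptor of monocytes, had 11.8 ± 1.30 and 21.9 ± 4.20 FPKM (SD, n = 3 each), and its log2 fold change was 0.88 (limma adjusted p = 0.0989, with the block 0.0356). As a ratio of the means, I13 over control, Adgre1 was at 2.01, Ccr2 at 1.86, Spi1 at 1.22 and Cebpb at 1.11. Any relation between the factors and these genes was not tested.

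Of 17 erythroid and megakaryocyte genes 8 were tested, with a median log2 fold change of 0.71. That median includes Hbb-bt, which had a mean of 0.027 FPKM in the control and 1.61 FPKM after I13. Hbb-bt thus passed the filter on low values only through the I13 samples. Hba-a1, a target of Gata1, was called in the higher direction with the block, where 1.89% of all genes tested were called. Hba-a1, an alpha globin gene with a near-identical copy that could share its reads, had 0.650 ± 0.492 FPKM in the control and 3.57 ± 1.86 FPKM after I13 (SD, n = 3 each), and its log2 fold change was 2.40 (limma adjusted p = 0.116, with the block 0.0384). Itga2b, an integrin of megakaryocytes, had 117 ± 31.8 and 109 ± 16.3 FPKM (SD, n = 3 each, adjusted p = 0.863 from limma).

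BaF3 is described as a pro-B cell line, and the markers of that stage were checked. Of 13 such genes 7 had a row. Ebf1, Pax5, Il7r and Igll1, which define B lineage progenitors, were at most 0.026 FPKM in any sample, and Vpreb1 at most 0.107 FPKM. Cd79a, a chain of the B cell receptor, was at 14.1 to 27.5 FPKM and Cd79b at 3.57 to 6.94 FPKM. The summed FPKM of the list was 17.7 to 32.9 in the controls and 27.2 to 34.3 after I13. In the same samples Gata2 was never under 144 FPKM.

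**Figure D5:**
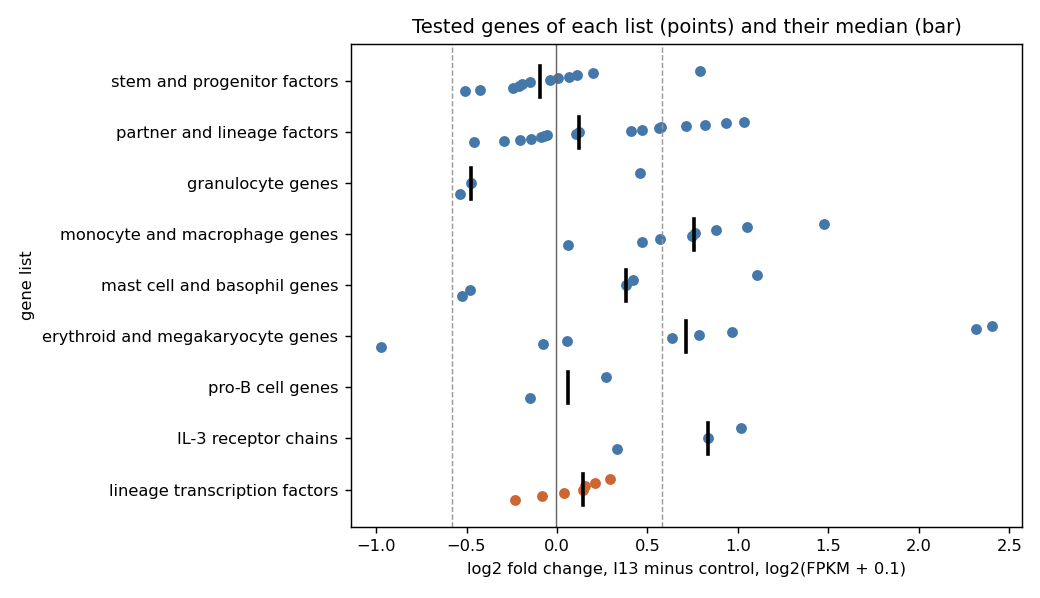
Log2 fold change, I13 minus control on log2(FPKM + 0.1), of the tested genes of each list, 1 point per gene, with a black bar at the median of the list. The solid line is the median of all genes tested at -0.005 and dashed lines mark 0.58 in each direction. The 7 lineage factors, in the lowest row, all lie within the dashed lines, between -0.23 and 0.29.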

How the data were processed

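The mRNA of 6 samples, 3 control and 3 I13, was sequenced from stranded libraries, and groups and replicate numbers were taken from the labels. The authors deposited FPKM per gene and sample, without pooling. The submitters' processing notes name Trimmomatic, HISAT2, Cufflinks and HTSeq without versions, and hg38, whereas the gene identifiers are mouse, so neither the build nor the annotation behind the values is clear. Whether counting used strand is not given in the sources used here. No mouse sequence or coordinate was used, and 0 columns were left without a sample.

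FPKM values were turned back into whole fragments within 0.002 fragments, plus 2e-07 of the count, for 22413 of 22413 genes. limma 3.58.1 in R 4.3.3 was run with eBayes and a trend. It was also run on simulated counts that held no difference between replicate numbers, which does not check the fits under the replicate differences seen here. Deviations from the group mean correlated across genes at 0.15, 0.30 and 0.22 for same-numbered samples, and at -0.26 to 0.05 for the others. Centring on the group mean ties these values to each other, so they are no independent check of a pairing. The labels do not state a pairing, and the results with the block assume it. Depth limits only the low genes, whose intervals cover counting error.

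The members, lists and tests were chosen with earlier results of these data known. The genes named are the members and, from each of 8 lists, those 3 highest in FPKM, those 3 lowest in p and any called in either fit, of which the text gives a part, and 1 gene is not reported here. Gfi1b, Csf1r and the granule and B lineage markers near 0 were named after their values were seen. Planned ratios with Cebpa, and of Gfi1 to Irf8, were not computed. Alternatives were other pseudocounts, filters and scalings, eBayes without a trend, the replicate block, voom on the recovered fragments and leaving out each sample. Ratios used scipy 1.17.1 and figures matplotlib 3.10.9.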

Additional observations from a re-analysis of the deposited data

How the results depend on the processing

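No lineage factor was called under any alternative, and 0 of 7 were called with the replicate block, against 1.89% of all genes tested. The alternatives without the block called at most 8 of all genes, and 0 when any 1 sample was left out. In those fits 0 factors therefore says nothing particular to the factors. Over 119 values of the 7 factors under the alternatives, 115 kept their sign, and the lowest adjusted p was 0.0975, for Gata2 with the block and voom. The sign turned only when a sample was left out. The log2 fold change of Cebpe was then between -0.27 and 0.40, with its negative value without control replicate 3. Runx1 ran from -0.068 to 0.14, and was negative without I13 replicate 3 and, at -0.059, without control replicate 1. Myb ran from -0.16 to 0.029, and was positive without control replicate 2. The others kept their sign, with Spi1 from 0.17 to 0.41, Gata1 from 0.10 to 0.36, Gata2 from -0.37 to -0.098 and Cebpb from 0.0098 to 0.31. The difference of the Spi1 to Gata1 log2 ratio ran from -0.069 to 0.28, negative without control replicate 3, while that of Gata2 to Gata1 stayed between -0.53 and -0.35 and that of Spi1 to Gata2 between 0.42 and 0.67. The order of the levels did not change under 2 other scalings or without any 1 sample.

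Over all genes, 5 were called. The paper, whose methods give the same thresholds but name no statistical test, reported many more genes in each direction. With a pseudocount of 0.01, median-ratio scaling or quantile normalization 2 were called, and without a filter or without a trend 8. The replicate block gave 230, 8 of them in the lists, and the block with voom 502, with 13 in the lists. Without any 1 sample 0 were called by limma, where the unadjusted p was below 0.05 in 1478 to 2482 genes. Leaving out each pair from the block, chosen after seeing the data, gave 0 to 83 genes (83 without pair 1, 0 without pair 2 or 3) and 0 to 5 in the lists. The cause was not tested. Depth limits Irf8 and Gfi1.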

Other observations

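Of 13 genes of mast cells, a lineage that needs Gata2, 5 were tested. None was called without the replicate block or with it, where 0.0411% and 1.89% of all genes tested were. Cma1, Cpa3 and Slc18a2 were highest in replicate 3 of both groups, and Hdc and Gzmb were not. Cma1, the mast cell chymase, had 14.8, 11.9 and 81.1 FPKM in control replicates 1, 2 and 3, against 8.56, 13.4 and 45.9 FPKM in the I13 samples, so replicate 3 was several times above the others in both groups. Cpa3, a mast cell carboxypeptidase, had 1.26, 1.20 and 9.39 FPKM in control replicates 1, 2 and 3, against 2.62, 2.60 and 5.38 FPKM in the I13 samples, with the same sample highest in each group. Slc18a2, a transporter that loads histamine into granules, had 87.8, 107 and 154 FPKM in the controls, against 129, 142 and 175 FPKM in the I13 samples. It was thus highest in replicate 3 as well, and higher after I13 in all 3 pairs. The log2 fold change of Slc18a2 was 0.38 (limma adjusted p = 0.377, with the replicate block 0.0706). Hdc, the enzyme that makes histamine, had 2.57, 0.222 and 1.08 FPKM in the controls, against 0.577, 0.345 and 1.03 FPKM in the I13 samples. Gzmb, a granule protease, had 0.995, 1.04 and 2.20 FPKM in the controls and was lowest in replicate 3 after I13, at 2.96, 5.01 and 1.73 FPKM. The summed FPKM of the mast cell list was 108, 122 and 249 in the control replicates and 144, 164 and 229 in the I13 replicates. Gata1, Gata2 and Runx1 were also highest in replicate 3 of both groups, and any relation between these values was not tested.

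The beta chains of the IL-3 receptor, which BaF3 cells depend on when BCR-ABL is absent, were among the most abundant genes of the lists. Csf2rb had 329 ± 118 FPKM in the control and 588 ± 218 FPKM after I13 (SD, n = 3 each), and its log2 fold change was 0.83 (limma adjusted p = 0.220, with the replicate block 0.0313). Csf2rb2, its near-identical copy, so that the split of reads between both is uncertain, had 286 ± 110 and 572 ± 194 FPKM (SD, n = 3 each). The log2 fold change of Csf2rb2 was 1.02 (limma adjusted p = 0.165, with the replicate block 0.0312). Csf2rb and Csf2rb2 were called with the block, where 1.89% of all genes tested were, and not without it. Il3ra, the alpha chain, had 11.4 ± 2.28 and 14.4 ± 3.31 FPKM (SD, n = 3 each, adjusted p = 0.408 from limma).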
